A study of Mus musculus with 19 samples.

Results

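The miR-99, miR-100 and miR-125 genes were followed through the small RNA of mouse sperm. The members were the 6 hairpin genes Mir99a, Mir99b, Mir100, Mir125a, Mir125b-1 and Mir125b-2, and they were quantified from sequenced reads of 20 to 24 nt that matched their hairpins, out of 1527 hairpins with at least 1 such read in the 19 libraries. All libraries came from sperm of wild-type male mice that were 8 weeks old when daily oral gavage began. The males received dicyclohexyl phthalate (DCHP), a plasticizer, or the corn oil vehicle for 4 weeks. RNA of each exposure group was sequenced by a traditional small RNA protocol and by PANDORA-seq, in which AlkB removes RNA methyl groups and T4 polynucleotide kinase repairs fragment ends before ligation, so that modified fragments of tRNA and rRNA also enter the library. This gave 4 PANDORA-seq control libraries, 5 PANDORA-seq DCHP libraries, 5 traditional control libraries and 5 traditional DCHP libraries. The treatment field of the labels reads DCHP for every library, so control and DCHP were taken from the library titles. The labels do not say whether a library is 1 animal or a pool, or whether libraries with the same number come from the same RNA, and p-values measure only the spread between libraries.

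MicroRNAs are cut from a hairpin as a short duplex. One strand, from the 5p or the 3p arm of the hairpin, is usually kept by Argonaute and pairs with target mRNAs mainly through its seed, bases 2 to 8. In vertebrates the miR-99/100 and miR-125 genes lie together with a let-7 gene in clusters that have been copied during evolution. miR-99 and miR-100 are known as regulators of the mTOR kinase, miR-125 is the vertebrate relative of worm lin-4, and let-7 restrains growth and stem cell programs.

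The 3 mouse clusters are all on the plus strand. On GRCm38 (mm10), Mir99a, Mirlet7c-1 and Mir125b-2 span chr16:77598936-77646343, and Mir100, Mirlet7a-2 and Mir125b-1 span chr9:41531425-41582002. Both clusters are long, 47408 and 50578 bp, with most of the distance between let-7 and miR-125b. Mir99b, Mirlet7e and Mir125a are packed into 692 bp at chr17:17830188-17830879. In the GENCODE annotation, Mir99a and Mir125b-2 are intronic in the noncoding transcript Mir99ahg, and Mir100 and Mir125b-1 are intronic in the noncoding transcript 3110039I08Rik. Exons of other annotated genes overlap some of them: Gm28119 at Mir125b-1 and C130023A14Rik at Mir125b-2 on the same strand, and Gm48742 at Mir100 on the other strand. Mir99b lies in an intron of the protein-coding gene Spaca6, and an annotated exon of Spaca6 overlaps Mir125a.

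The mature 5p sequences are shown because every level below depends on telling them apart. They are from RefSeq (GRCm38.p6), which held all 6 genes, and are written 5′ to 3′ with the seed in capitals.
miR-99a-5p: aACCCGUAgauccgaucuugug
miR-100-5p: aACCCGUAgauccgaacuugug
miR-99b-5p: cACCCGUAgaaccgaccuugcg
miR-125b-5p: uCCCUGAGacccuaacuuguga
miR-125a-5p: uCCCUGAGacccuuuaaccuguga
The members thus form 2 seed families. Counted from 1 at the 5′ end, miR-99a-5p and miR-100-5p differ at 1 base (U16A), and miR-99a-5p and miR-99b-5p at 4 bases (A1C, U11A, U16C and U21C). Mir125b-1 and Mir125b-2 make the same miR-125b-5p, which the reads cannot assign to a gene, so it was counted once. miR-125a-5p shares its first 13 bases with miR-125b-5p. A sequencing error at base 16 can turn a miR-99a-5p read into an exact match of miR-100-5p or the reverse, and counts of that pair carry this uncertainty.

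The 3p arms differ more, and they are the strands that separate the miR-125b genes.
miR-99a-3p: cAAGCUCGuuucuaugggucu
miR-99b-3p: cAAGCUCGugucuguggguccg
miR-100-3p: aCAAGCUUgugucuauagguau
miR-125a-3p: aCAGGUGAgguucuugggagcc
miR-125b-1-3p: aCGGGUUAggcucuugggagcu
miR-125b-2-3p: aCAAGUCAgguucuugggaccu
Only miR-99a-3p and miR-99b-3p share a seed among these 6.

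Depth differed greatly between the methods. PANDORA-seq libraries held 25432054 to 56506344 reads, and traditional libraries 21588335 to 52099239. The miRNA reads, meaning reads of 20 to 24 nt on hairpins whose reads are at least 50% of that length, made up 0.0229 to 0.106% of PANDORA-seq libraries and 3.96 to 15.6% of traditional libraries. The 6 genes together had 1264 reads over the 9 PANDORA-seq libraries and 203834 over the 10 traditional libraries, so their traditional values are the more precise. Some libraries stood apart. PANDORA-seq DCHP 5 had the largest miRNA share of its method, 0.106%, and traditional control 2 that of its own, 15.6%. Mir122, a liver miRNA, ran from 12963 to 431842 reads per 1000000 miRNA reads (miRNA RPM). It was highest in replicate 2 of all 4 groups, with 431842 in traditional control 2, 274840 in PANDORA-seq control 2, 255785 in PANDORA-seq DCHP 2 and 215635 in traditional DCHP 2, and traditional control 1 reached 240942. Marker miRNAs of spermatogenic cells summed to 767 to 6542 miRNA RPM, below those of epididymal epithelium, 6024 to 47539, and of muscle, 11004 to 89615. Blood markers summed to 439 to 3050. In both PANDORA-seq groups the spermatogenic markers Mir449b and Mir449c, the blood markers Mir144 and Mir142b and the muscle markers Mir133a-1 and Mir133a-2 were at 0. The part of these other cell types in the member levels was not tested.

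The question of which members sperm RNA holds most of was taken first. In traditional libraries miR-99a-5p was the most abundant of the 5 mature 5p species, followed by miR-100-5p, miR-99b-5p, miR-125b-5p and miR-125a-5p. Levels are given in miRNA RPM. miR-99a-5p was at 3538, 4479, 2203, 1863 and 2633 in the traditional control libraries 1 to 5, and at 2501, 3310, 3038, 3801 and 4001 in the traditional DCHP libraries. These are means of 2943 ± 1063 (SD, n = 5) and 3330 ± 601 (SD, n = 5). Traditional control 2 was the highest and control 4 the lowest, and the DCHP values lay within the control range.

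miR-100-5p, the chromosome 9 counterpart of miR-99a-5p, was at 1617, 1286, 2285, 2305 and 2428 in traditional control libraries and at 2542, 1968, 2681, 2237 and 1287 in traditional DCHP libraries. The low values were those of control 2 and DCHP 5, and the groups overlapped. The ranges of miR-100-5p and miR-99a-5p overlapped too, and miR-100-5p was the higher of the pair in 3 of 10 traditional libraries, control 3, control 4 and DCHP 1. miR-99b-5p was at 821 to 1883 (median 1572) in traditional controls and 1009 to 1999 (median 1505) in traditional DCHP libraries. It was below miR-100-5p in 5 of 5 controls and 4 of 5 DCHP libraries, although the ranges overlapped.

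The miR-125 seed family was lower. miR-125b-5p was at 607, 623, 612, 488 and 666 in traditional control libraries and at 658, 877, 539, 830 and 924 in traditional DCHP libraries. Each value was below the lowest miR-99b-5p value of its group. miR-125a-5p, encoded next to miR-99b, was at 399, 337, 221, 226 and 274 in controls and at 203, 617, 254, 326 and 586 in DCHP libraries. It was the lowest of the 5 in 10 of 10 traditional libraries, although its range overlapped that of miR-125b-5p in the DCHP group.

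Among the 588 arms of hairpins with mature-length reads, miR-99a-5p ranked 29 by mean level in traditional controls and miR-125a-5p ranked 88. The other 3 species ranked 41 (miR-100-5p), 49 (miR-99b-5p) and 66 (miR-125b-5p). The let-7 neighbours did not share one level. let-7c-5p and let-7a-5p, each made by more than 1 gene, had medians of 32585 and 22982 miRNA RPM over the 10 traditional libraries, while let-7e-5p, from the compact chromosome 17 cluster, had a median of 920, between those of its neighbours miR-99b-5p (1517) and miR-125a-5p (299.9).

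**Figure D1:**
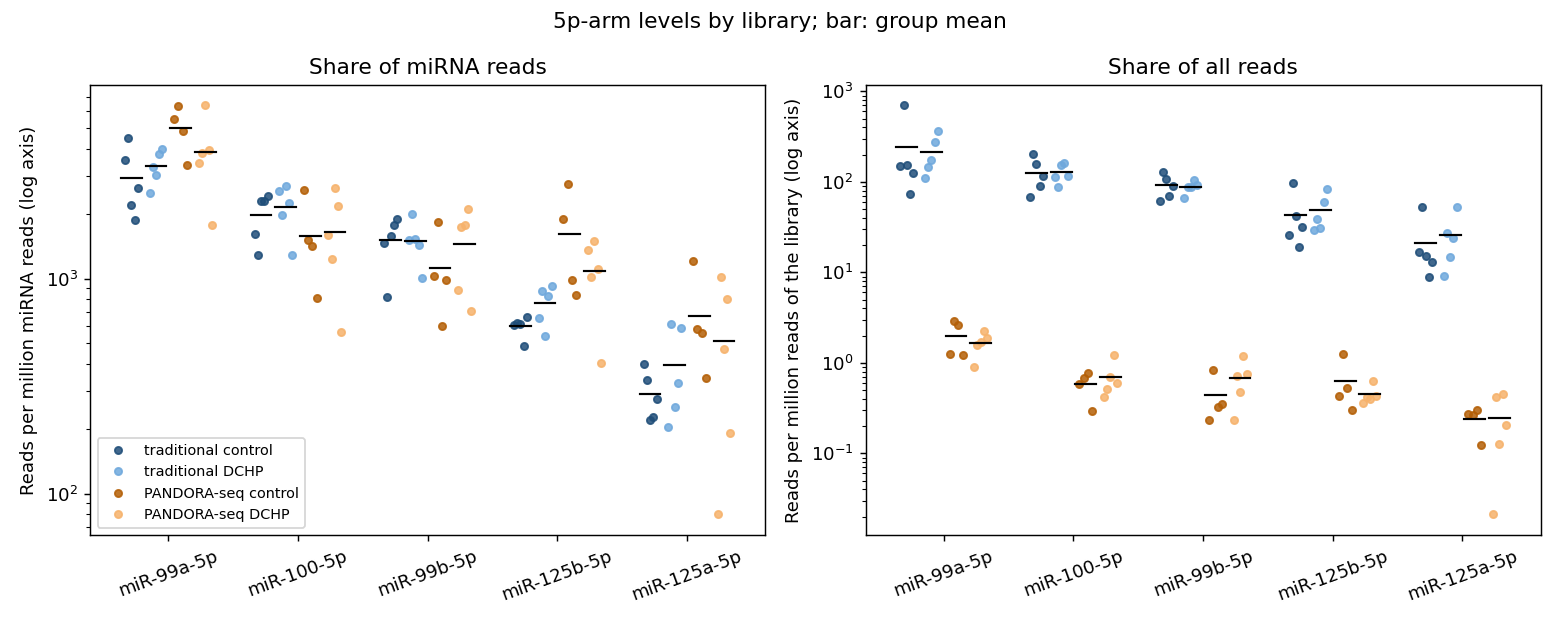
Levels of the 5 mature 5p species in each library, in miRNA RPM and in reads per 1000000 reads of the library (library RPM), both on log axes. Points are libraries and bars are group means. On the first scale miR-99a-5p of the traditional libraries lies between 1863 and 4479 and the PANDORA-seq means are 0.741 to 2.70 times the traditional means, with all PANDORA-seq control values of miR-125b-5p above the traditional control values, whereas on the second scale traditional libraries are higher by factors of 68.9 to 218 in the means.

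PANDORA-seq placed the same species first. miR-99a-5p was at 5502, 6347, 4838 and 3382 miRNA RPM in PANDORA-seq controls and at 3441, 3832, 6381, 3954 and 1780 in PANDORA-seq DCHP libraries. It was the highest of the 5 species in 9 of 9 libraries, on 32 to 113 reads a library. PANDORA-seq DCHP 5 was the lowest. miR-125a-5p was the last in 7 of 9, on 1 to 14 reads.

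The comparison of methods asks how the preparation of the library alters the members. Per 1000000 reads of the library (library RPM), all 5 species were lower in PANDORA-seq. Traditional means exceeded PANDORA-seq means by a factor of 121 for miR-99a-5p, 218 for miR-100-5p, 210 for miR-99b-5p, 88.6 for miR-125a-5p and 68.9 for miR-125b-5p in controls. In DCHP libraries the factors were 129, 184, 131, 105 and 109. Over all member arms the factors were 136 and 134. Most arms fell in the same way. With all reads as library size, the median log2 difference between methods over 292 arms was −6.97 in controls. The member 5p species ran from −7.77 to −6.11 around it. In DCHP libraries the median over 319 arms was −6.53, and the member 5p species ran from −7.53 to −6.73. Of these arms, 265 in controls and 290 in DCHP libraries were called lower in PANDORA-seq.

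Relative to miRNA, the means of PANDORA-seq controls were 0.741 to 2.70 times those of traditional controls, and 1 member passed the test. miR-125b-5p was at 1891, 2756, 985 and 839 miRNA RPM in PANDORA-seq controls, 1618 ± 890 (SD, n = 4). All 4 were above the 5 traditional control values, whose mean was 599 ± 66.5 (SD, n = 5). In edgeR's quasi-likelihood test over all arms, miR-125b-5p was higher in PANDORA-seq by 1.41 (SE 0.45) on the log2 scale, with a Benjamini-Hochberg adjusted p of 0.0292. It was the 1 member arm called among the 8 tested, at an adjusted p below 0.1 and a fold above 2. Of all 292 arms tested, 31.2% were called, 74 higher and 17 lower, and nothing is read from the members' count, since miR-125a-5p and the 3 tested 3p arms, of Mir99b, Mir125b-1 and Mir125b-2, entered the test through the traditional libraries and had few PANDORA-seq reads. The arms tested here and below include those of hairpins whose reads are mostly of other lengths. Fewer were called on arms of mature-length hairpins only, as given at the end. The call of miR-125b-5p was lost without PANDORA-seq control 2 (log2 difference 0.99, adjusted p = 0.111, edgeR), the PANDORA-seq library highest in Mir122. With Mir122 left out of the library size and all libraries kept, the log2 difference was 1.34 (edgeR adjusted p = 0.0574).

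The scale decided this result as well. TMM scaling, an alternative to the miRNA reads as library size, moved the median of all arms from 0.25 to −0.90. miR-125b-5p was then at 0.31 (edgeR adjusted p = 0.660). With DESeq2 it was at −0.24 (adjusted p = 0.635), where the median was −1.02. Relative to the median of all arms, the member 5p species ran from −0.69 to 1.16 under the main scaling and from −0.66 to 1.21 under TMM, so the distances from that median were similar under both, while miR-99a-5p and miR-125a-5p moved from above 0 to below 0. The split of called arms became 54 higher and 58 lower under TMM.

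The other species did not pass the main test in controls. miR-99a-5p was 1.70 times and miR-125a-5p 2.31 times as high in PANDORA-seq by the means, with log2 differences of 0.76 (SE 0.41) and 1.11 (SE 0.49) and edgeR adjusted p of 0.210 and 0.117. miR-125a-5p had 7 to 13 reads in these PANDORA-seq libraries. It was called without PANDORA-seq control 4 (log2 difference 1.35, edgeR adjusted p = 0.0904) or without traditional control 2 (1.14, edgeR adjusted p = 0.0846), and ran from 0.76 to 1.35 over the libraries left out. It also passed with replicate numbers taken as blocks, as given below. miR-100-5p and miR-99b-5p had log2 differences of −0.38 (SE 0.45) and −0.45 (SE 0.46), with edgeR adjusted p of 0.563 and 0.519. Under TMM the pair was at −1.56 and −1.44, and with DESeq2 at −1.98 and −1.99. TMM called 3 and DESeq2 2 of the 8 member arms, each lower in PANDORA-seq. Of all 292 arms they called 112 and 154, and nothing is read from the members' count for the reason given above.

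In DCHP libraries none of 8 member arms was called between methods, while 21.3% of the 319 arms tested were, 66 higher and 2 lower. At an unadjusted p under 0.05, edgeR held 0 member arms and 80 arms in all. DESeq2, which moved the median of all arms from 0.24 to −0.82, called 42.3% of the 319 arms and 3 of the 8 member arms, each lower in PANDORA-seq, and nothing is read from this count for the reason given for controls. miR-125b-5p was at 1360, 1012, 1501, 1112 and 405 in PANDORA-seq DCHP libraries, 1078 ± 423 (SD, n = 5), and overlapped the traditional DCHP values because of library 5. Its log2 difference was 0.45 (SE 0.41, edgeR adjusted p = 0.499). The difference between controls and DCHP libraries in the method effect was tested as an interaction, and 0 of 9 member arms passed, against 0% of 386 arms (smallest member adjusted p = 0.966, edgeR). At an unadjusted p under 0.05 edgeR held 0 member arms and 11 arms in all, and DESeq2 called 0 arms (0%).

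The comparison of DCHP with control asks whether exposure of the males altered these miRNAs in their sperm. No member was called by either method. In traditional libraries 9 member arms were tested and 0 were called, against 0% of 375 arms. No member arm and 28 arms in all had an unadjusted p under 0.05 in edgeR, and DESeq2 called 0 (0%). The log2 differences were 0.18 (SE 0.31) for miR-99a-5p, 0.11 (SE 0.31) for miR-100-5p, −0.01 (SE 0.31) for miR-99b-5p, 0.45 (SE 0.37) for miR-125a-5p and 0.35 (SE 0.28) for miR-125b-5p. The smallest edgeR adjusted p of these 5p species was 0.688, that of miR-125b-5p. The tested 3p arms had log2 differences of 0.87 (SE 0.48) for miR-125b-1-3p, 0.65 (SE 0.39) for miR-125b-2-3p, 0.69 (SE 0.77) for miR-125a-3p and 0.18 (SE 0.37) for miR-99b-3p. Their smallest edgeR adjusted p was 0.658, that of miR-125b-1-3p. The signs of the miR-99a-5p, miR-100-5p and miR-125b-5p differences turned under TMM, to −0.27, −0.24 and −0.03, where the median of all arms moved from 0.22 to −0.12. The marker sums are given beside these values and were not tested. From control to DCHP, the median of the 5 spermatogenic markers went from 2807 to 4182 miRNA RPM in traditional libraries (ranges 767 to 3690 and 3047 to 6542) and from 2402 to 4757 in PANDORA-seq libraries (ranges 1584 to 3611 and 2892 to 5821). The median of the 5 epididymal markers went from 15151 to 22291 (ranges 6024 to 21305 and 17824 to 47539) and from 10623 to 18673 (ranges 9801 to 12544 and 9832 to 39481). The median of the blood markers went from 755 to 572 in traditional and from 2205 to 1160 in PANDORA-seq libraries, and that of the muscle markers from 51313 to 62030 and from 16394 to 30684. Their part in the member values was not tested. Fewer cells carrying a miRNA and less of it per cell cannot be told apart in these bulk samples.

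In PANDORA-seq libraries 4 member arms passed the filter of 10 reads in 4 libraries, and 0 were called, against 0% of 110 arms. miR-99a-5p had a log2 difference of −0.37 (SE 0.44), miR-125b-5p −0.58 (SE 0.55), miR-99b-5p 0.37 (SE 0.53) and miR-100-5p 0.08 (SE 0.55), with edgeR adjusted p of 0.944 or above. At an unadjusted p under 0.05 edgeR held 0 member arms and 7 arms in all, and DESeq2 called 1 arm (0.909%), which was no member. miR-125a-5p did not pass the filter. The SEs, 0.44 to 0.55, limit what could be seen at this depth.

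The let-7 and miR-10 families were set beside the members as other conserved miRNAs. Of 14 let-7 arms and 4 miR-10 arms tested in traditional libraries, 0 were called for exposure. The median log2 difference was 0.54 for let-7 and 0.29 for miR-10, against 0.35 for the members and 0.22 for all arms. In PANDORA-seq libraries 0 of 8 let-7 and 0 of 2 miR-10 arms were called, and the medians were −0.27 for let-7, 0.0055 for miR-10, −0.15 for the members and −0.05 for all arms. Between methods in controls, 2 of 11 let-7 arms were called, both higher in PANDORA-seq, and 0 of 4 miR-10 arms, against 31.2% of all arms. In DCHP libraries 0 of 12 let-7 and 0 of 4 miR-10 arms were called, against 21.3% of all arms. The let-7 median was 0.40 in controls and −0.15 in DCHP libraries.

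The seed families were also summed. In the 10 traditional libraries the sum of miR-99a-5p, miR-100-5p and miR-99b-5p lay between 5948 and 7467 miRNA RPM, a 1.26-fold range. Its parts ranged 2.40-fold (miR-99a-5p), 2.08-fold (miR-100-5p) and 2.43-fold (miR-99b-5p). In library RPM the same sum ranged 4.38-fold, and in the 9 PANDORA-seq libraries it ranged 3.54-fold in miRNA RPM, and with Mir122 left out of the denominator the range in traditional libraries was 1.91-fold, from 6065 to 11592. On that scale the parts ranged 4.15-fold (miR-99a-5p), 2.35-fold (miR-100-5p) and 2.49-fold (miR-99b-5p), so the narrow range depends on the denominator. The miR-125 family sum ranged 2.12-fold in traditional libraries, from 713 to 1510, while its parts ranged 1.90-fold (miR-125b-5p) and 3.03-fold (miR-125a-5p).

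The number of miR-99a-5p reads per miR-100-5p read ran from 0.808 to 3.48 (median 1.41) in traditional libraries and from 1.83 to 4.22 (median 3.12) in PANDORA-seq libraries. The ranges overlapped. This ratio does not depend on the scaling of the library. miR-125b-5p per miR-125a-5p ran from 1.42 to 3.24 (median 2.14) and from 1 to 17 (median 2.11). The widest values were those of PANDORA-seq libraries with few reads.

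**Figure D2:**
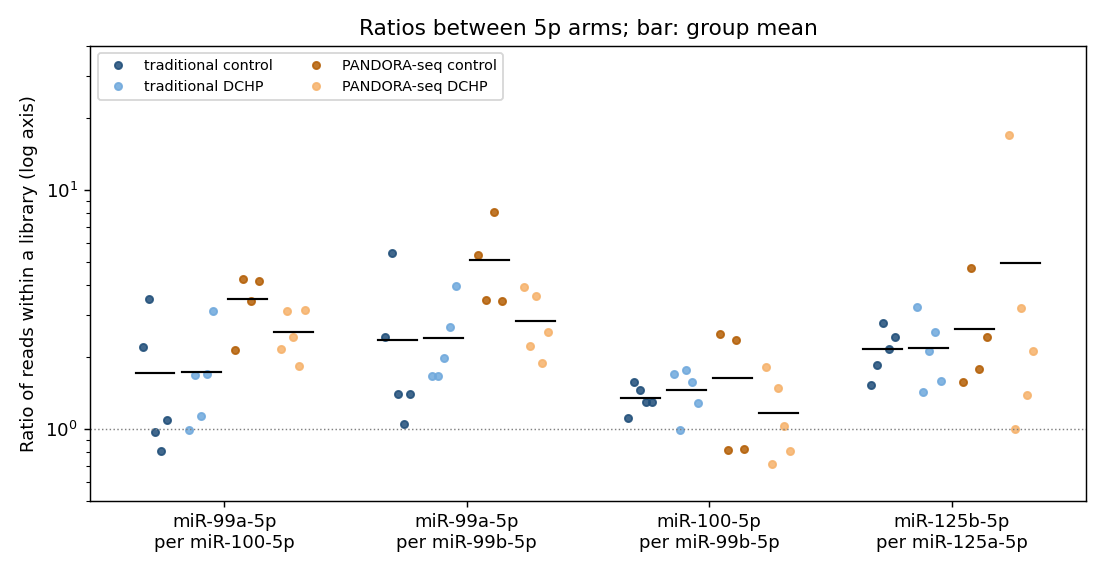
Ratios between members in each library on a log axis, with libraries as points and colours for the 4 groups. miR-99a-5p per miR-100-5p spans 0.808 to 3.48 in traditional and 1.83 to 4.22 in PANDORA-seq libraries, and miR-125b-5p per miR-125a-5p reaches 17 in 1 PANDORA-seq DCHP library.

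Across the 10 traditional libraries, miR-99a-5p was low where miR-100-5p was high. Correlations were taken on log2(miRNA RPM + 1) unless stated otherwise. Pearson's r between the pair was −0.71 (permutation p = 0.0227, adjusted over 10 pairs 0.0568) and Spearman's rho −0.75 (permutation p = 0.0178, adjusted 0.0598). Without traditional control 3 and control 4, the libraries farthest from the median of miR-99a-5p on the log scale, r was −0.83. Without control 2 and DCHP 5, the farthest for miR-100-5p, it was −0.43, so the size of the relation rests largely on those libraries. With any 1 library left out it ran from −0.79 to −0.60. On levels not put on a log scale r was −0.75 (permutation p = 0.0146, adjusted 0.0730), or −0.70 without control 2 and control 4. Within controls it was −0.91 and within DCHP libraries −0.72. These libraries share a denominator that Mir122 can fill, and the relation changed with it. Leaving Mir122 out of the denominator gave an r of −0.22 (permutation p = 0.520), and levels in library RPM gave 0.63 (permutation p = 0.0523). The log2 miRNA share of the library was also set against log2(miRNA RPM + 1). Its r was 0.64 for miR-99a-5p, −0.63 for miR-100-5p and −0.88 for miR-99b-5p (permutation p adjusted over 5 species 0.0766, 0.0766 and 0.00740). It was 0.20 for miR-125a-5p and 0.24 for miR-125b-5p. Without control 2 and DCHP 5, r of the first 3 was 0.26, 0.30 and −0.46. The smallest adjusted p of Spearman's rho was 0.150 (permutation). The part of this share in the relation was not tested.

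**Figure D3:**
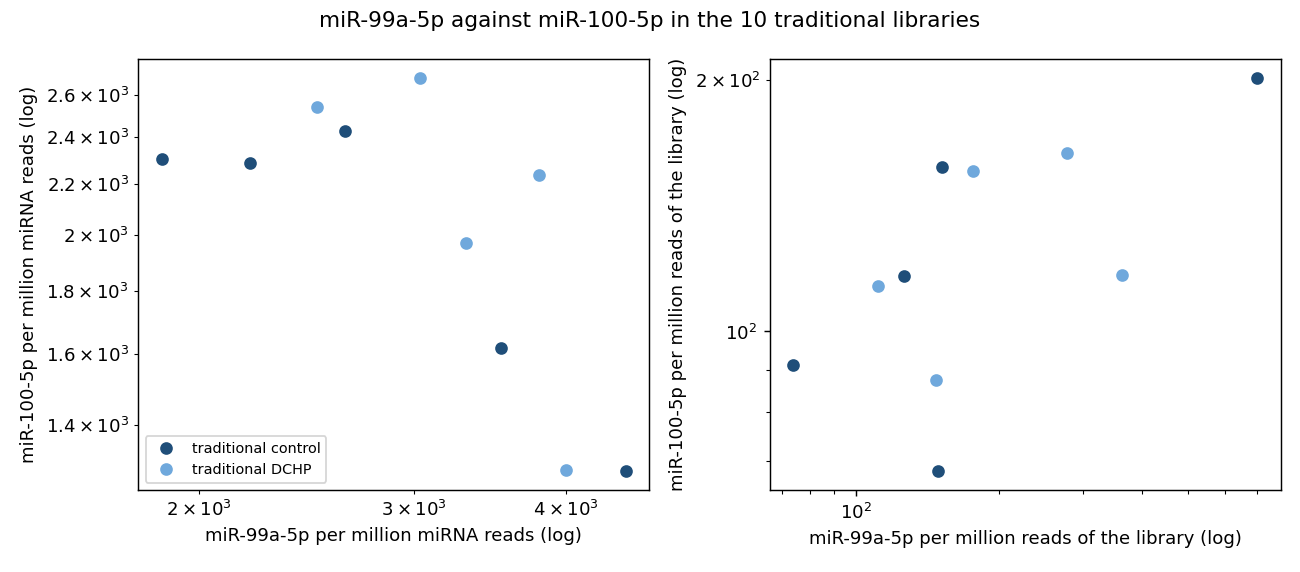
Level of miR-99a-5p against that of miR-100-5p, in miRNA RPM and in library RPM, on log axes, with 1 point for each traditional library, coloured by exposure. In miRNA RPM, libraries high in miR-99a-5p, up to 4479, are low in miR-100-5p, down to 1286. There r of the log2 levels is −0.71, or −0.22 when Mir122 is left out of the denominator. In library RPM r is 0.63.

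Cluster neighbours were then compared. The neighbours miR-99b-5p and miR-125a-5p, in 692 bp of chromosome 17, had an r of −0.21 (permutation p = 0.572, adjusted 0.635; rho −0.19, permutation p = 0.608) in miRNA RPM over the same libraries. It was 0.37 without traditional control 2 and DCHP 5, −0.45 without DCHP 2 and DCHP 5, from −0.61 to 0.052 with any 1 library left out (0.052 without DCHP 5), −0.51 within controls and −0.09 within DCHP libraries. miR-99b-5p rather went with miR-100-5p (r = 0.77, permutation p = 0.0122, adjusted 0.0568; rho 0.54, permutation p = 0.114), but that relation rested on traditional control 2 and DCHP 5, without which r was 0.012. miR-99a-5p and miR-125a-5p, from different clusters, went together on 3 scales. Their r was 0.69 miRNA RPM (permutation p = 0.0302, adjusted 0.0568; rho 0.76, permutation p = 0.0147), 0.80 without Mir122 in the denominator (permutation p = 0.00400, adjusted 0.0133) and 0.90 in library RPM. On levels not put on a log scale it was 0.58 (permutation p = 0.0790, adjusted 0.132). Without traditional control 3 and control 4 the first of these was 0.58, and it was 0.87 within controls and 0.72 within DCHP libraries. miR-99a-5p with miR-125b-5p, which Mir125b-2 encodes in the same cluster and Mir125b-1 in another, had an r of 0.58 in miRNA RPM (permutation p = 0.0799, adjusted 0.114; rho 0.50, permutation p = 0.143), 0.30 without the same 2 libraries, and 0.85 without Mir122 in the denominator (permutation p = 0.00176, adjusted 0.00880). In the chromosome 9 cluster, miR-100-5p with miR-125b-5p had an r of −0.38 (permutation p = 0.278, adjusted 0.347; rho −0.38, permutation p = 0.279), −0.25 without control 2 and DCHP 5, −0.21 within controls and −0.80 within DCHP libraries. It was −0.36 without Mir122 in the denominator (permutation p = 0.329) and 0.64 in library RPM. In miRNA RPM other pairs were of similar size, each at an adjusted permutation p of 0.0568. They were miR-125a-5p with miR-125b-5p (r = 0.75), miR-100-5p with miR-125a-5p (−0.68) and miR-99a-5p with miR-99b-5p (−0.67). Without Mir122 in the denominator these were 0.89, −0.44 and −0.15. In library RPM r was positive for all 10 pairs, from 0.34 to 0.94, so 0.90 there does not set miR-99a-5p and miR-125a-5p apart.

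Among 129 arms outside the members with at least 100 miRNA RPM, those most like the miR-99/100 family sum over the 10 traditional libraries were miR-30c-5p (Pearson's r of log2(miRNA RPM + 1) = 0.69), the 3p arm of Mir127 (0.67) and the 5p arm of Mir541 (0.62). For the miR-125 family sum they were the 3p arm of Mir423 (0.82), the 3p arm of Mir222 (0.72) and the 5p arm of Mir98 (0.69). These are descriptions, and the arms share libraries and denominator.

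The arms of each hairpin were compared next. The 5p arm dominated in all 6 genes, but the 3p arm ranged from nearly absent to several percent. Of Mir100 reads, 1 of 26535.5 in traditional controls and 2 of 22649 in traditional DCHP libraries came from the 3p arm. Fractions of reads arise because a read that matched several hairpins was divided between them. Mir99a was nearly as one-sided, with 35 of 54695.5 and 15 of 36900.5 reads. Mir99b, with the same 3p seed as Mir99a, had a median 3p share of 3.96% (range 3.02 to 5.34%) in traditional controls and 4.35% (3.62 to 5.84%) in DCHP libraries, above every Mir99a value. Mir125a had medians of 1.62% and 0.838%.

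The 3p reads separate the miR-125b genes. miR-125b-1-3p was at 4.66 to 26.5 miRNA RPM in traditional libraries (median 15.2) and miR-125b-2-3p at 12.6 to 38.1 (median 22.2). Both 3p species had reads in 10 of 10 traditional libraries, at least 6 and 16 a library. The 3p share was 3.82% for Mir125b-1 and 5.04% for Mir125b-2 in traditional controls, and 5.34% and 7.75% in DCHP libraries, as medians. These shares rest on dividing miR-125b-5p equally between the genes.

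**Figure D4:**
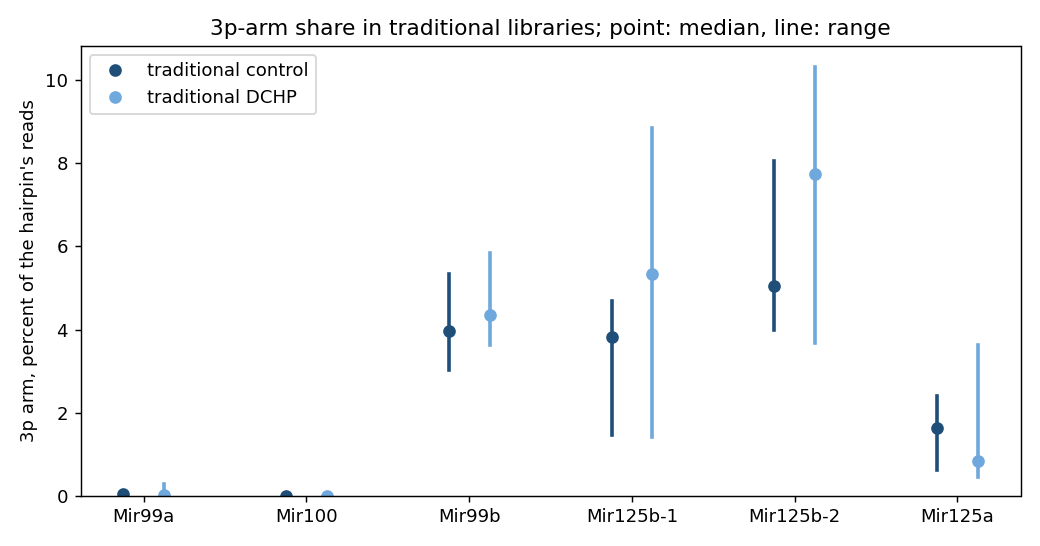
Share of each hairpin's reads from the 3p arm in traditional libraries, in percent, with the median as a point and the range over 5 libraries as a line, for control and DCHP. Mir99a and Mir100 reach at most 0.283%, while Mir99b, Mir125b-1 and Mir125b-2 have medians between 3.82 and 7.75%.

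The 5p share was tested by a 2-sided exact permutation test in hairpins with at least 10 reads in each library. For exposure, 0 of 6 members were called in traditional libraries, against 0% of 278 hairpins, and 0 of 2 in PANDORA-seq libraries, against 0% of 123. At an unadjusted p under 0.05 there were 0 members in both, and 11 and 3 hairpins in all. In these designs the smallest exact p was 0.00794 and 0.0159, and 23 and 20 hairpins would have needed to reach it before any adjusted p fell below 0.1. For method in controls, 1 of 2 members was called, Mir99a, against 28.1% of 121 hairpins (exact permutation, adjusted p = 0.0565). In PANDORA-seq, Mir99a had 0 of 289.5 reads on the 3p arm in controls, which allows a share of up to 1.04%, far above the traditional 0.0399%, so a difference could not be seen at this depth. The call rests on 0 such reads in each PANDORA-seq control against at least 1 in each traditional control. At these read numbers that outcome was to be had without any difference in share, so nothing is read from the call. The count of called hairpins fell to 0 when any of the PANDORA-seq control libraries or traditional control 3 was left out. Leaving out a library raises the smallest exact p of this comparison above the 0.0159 of the full design. More hairpins than the 20 needed there must then reach it, so this count alone does not tell how stable the result is. For method in DCHP libraries, 0 of 3 members were called, against 33.3% of 129 hairpins. Mir99b had 17 of 138 reads on the 3p arm in PANDORA-seq DCHP libraries, and 12 of the 17 were in library 5.

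The ends of the reads set closely related members apart. The most frequent miR-99a-5p read in traditional libraries was the 20-nt form, which lacks the last 2 bases of the annotated sequence and made up 62.2% of the reads of that arm. For miR-100-5p, 1 base away in sequence, it was the 21-nt form, with 44.6%. These forms are shown with the base that differs between the miRNAs in capitals.
miR-99a-5p, 20 nt: aacccguagauccgaUcuug
miR-100-5p, 21 nt: aacccguagauccgaAcuugu
Reads of 20 nt were 71.7% of miR-99a-5p reads in traditional libraries (61.6 to 75.0% by library) and 34.4% of miR-100-5p reads (30.4 to 39.8%), so the ranges did not overlap. In PANDORA-seq the pooled shares were 70.5% and 31.1%.

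The mean length of miR-99a-5p reads was 20.43 ± 0.056 nt (SD, n = 10) in traditional libraries and that of miR-100-5p 20.83 ± 0.038 nt (SD, n = 10). The difference of −0.404 nt (SD 0.0474) had the same sign in 10 of 10 libraries (2-sided exact sign-flip permutation test, p = 0.00195, the smallest these libraries can give, adjusted over 8 comparisons 0.00391). In the 9 PANDORA-seq libraries it was −0.430 nt, again with the same sign in each (exact permutation p = 0.00391, adjusted 0.00521). Reads of 18 to 26 nt gave −0.221 nt in traditional libraries, with the same sign in 10 of 10, and −0.340 nt in PANDORA-seq libraries (exact permutation, adjusted p = 0.0125), where 1 of 9 libraries had the opposite sign. The window of 20 to 24 nt removes shorter reads, which were 6.83% of miR-99a-5p and 15.0% of miR-100-5p reads of any length in traditional libraries. Reads of 15 nt from the shared start match both and were divided equally, so part of this contrast can come from that division.

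miR-99b-5p lay between the others. It was longer than miR-99a-5p by 0.267 nt in 10 of 10 traditional libraries (exact permutation p = 0.00195, adjusted 0.00391). It was shorter than miR-100-5p by 0.137 nt in 10 of 10, but with reads of 18 to 26 nt the difference was 0.029 nt and did not pass (exact permutation, adjusted p = 0.141). In PANDORA-seq it was 0.102 nt (exact permutation, adjusted p = 0.281).

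**Figure D5:**
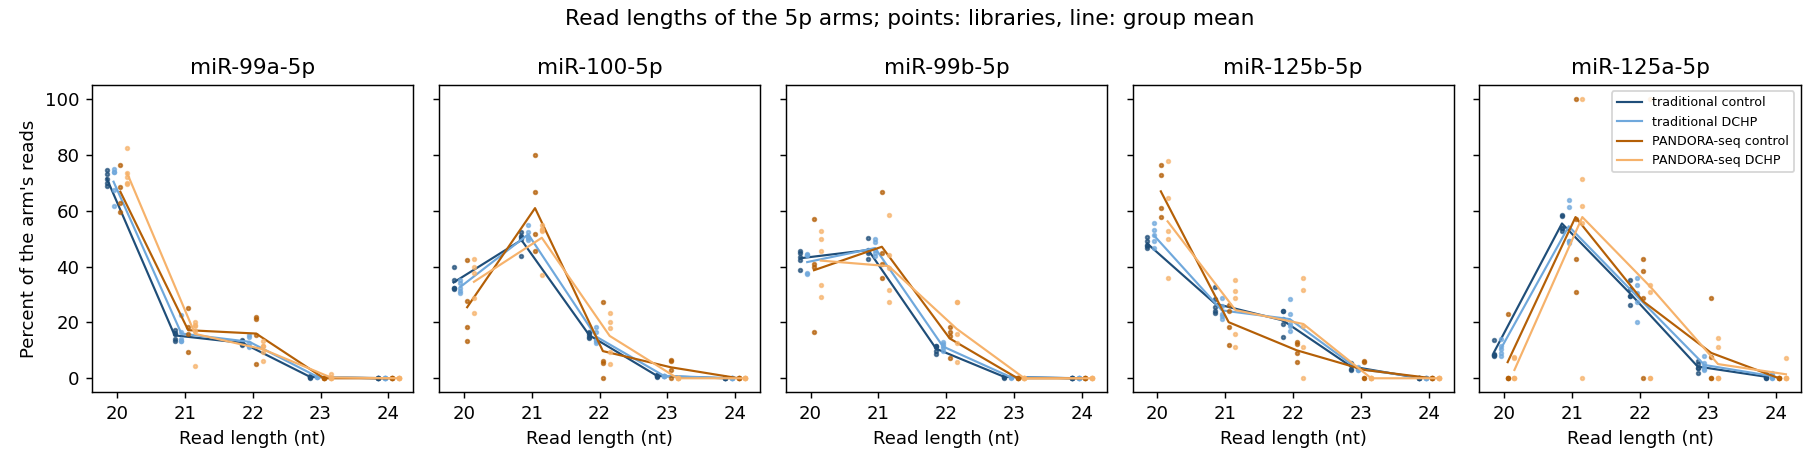
Share of 5p-arm reads by read length, in percent, for the 5 species and both methods, with points for libraries and lines for group means. Reads of 20 nt lead for miR-99a-5p, with 71.7% of pooled traditional reads, and reads of 21 nt for miR-100-5p, with 49.9%.

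In the miR-125 family the contrast was larger. miR-125a-5p, annotated at 24 nt, was read mostly as 21 nt (54.7% of traditional reads), and 0.497% of its reads had the full annotated sequence, against 18.7% for miR-125b-5p. miR-125a-5p reads were longer than miR-125b-5p reads by 0.518 nt in traditional libraries (10 of 10, exact permutation p = 0.00195, adjusted 0.00391) and by 0.853 nt in PANDORA-seq (exact permutation, adjusted p = 0.00521). With reads of 18 to 26 nt the differences were 1.12 and 1.69 nt. Of miR-125b-5p reads of any length, 33.7% were of 15 to 19 nt in traditional libraries (28.1 to 37.9%) and 47.3% in PANDORA-seq (38.9 to 58.7%), and these fall outside the counted window. For miR-125a-5p the share was 2.96% in traditional libraries.

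The 5′ end, which sets the seed, was fixed in 4 of the 5 species: medians of 99.1 to 99.7% of the reads of miR-99a-5p, miR-99b-5p, miR-100-5p and miR-125a-5p began at the annotated base in traditional libraries. In miR-125b-5p 90.0% of pooled reads did, and 9.97% began later (7.45 to 16.7% by library), which shifts the seed. In PANDORA-seq 7.74% did. Mean read length was also compared between methods and exposures in 20 tests of the 5 species. None passed, and the smallest p was that of miR-125b-5p between methods in controls (−0.322 nt in PANDORA-seq, exact permutation p = 0.0159, adjusted 0.317).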

How the data were processed

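Small RNA of 15 to 50 nt was sequenced. The deposited files hold, per library, raw counts of each distinct sequence of 15 to 45 nt, which the authors made by adapter removal and quality filtering. The submitters' notes name build mm10. Reads were aligned with bwa 0.7.19 to GENCODE vM21 hairpins in sense with at most 1 mismatch, the best match was kept and shared reads were divided equally. Reads of 20 to 24 nt counted. Arms sharing over 50% of their reads were merged. Library size was the miRNA reads. Arms with at least 10 reads in 4 libraries were tested with edgeR 4.0.16 in R 4.3.3 (quasi-likelihood, Benjamini-Hochberg). Intervals and floors cover counting error only. Shares, lengths and correlations used permutation tests written in Python 3.11.15 with NumPy 2.4.6, with 100000 permutations for correlations. Spearman's rho was computed with SciPy 1.17.1. Members and lists were chosen with earlier results of these data known. The tests of read length and the correlations were added after the data were seen. All 6 members were described on 11 arms, with their let-7 neighbours and, per seed family, the 3 arms whose levels correlated most with its sum across traditional libraries. On simulated counts edgeR recovered 100% of 8-fold changes over 110 and 375 arms (PANDORA-seq and traditional exposure), with 8.33% and 11.6% of calls false. These changes were far larger than any member difference by exposure, and the same spread was set for all arms. This recovery does not measure the power for the members. The share test recovered 0% for PANDORA-seq exposure and 100% in the other 3 comparisons, with 6.06% (traditional exposure), 28.6% (method, controls) and 11.1% (method, DCHP) of calls false. The simulated share shifts were far larger than any member difference, and counting error was their only spread. Their recovery therefore does not measure the power for the members. Alternatives covered scaling, DESeq2 1.42.0, filters, read length, mismatches and each library left out.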

Additional observations from a re-analysis of the deposited data

Results flagged for a closer look

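Dixon's criterion was applied to 70 groups of member values and picked out 2, while chance picks out about 1 in 20. Traditional DCHP 2 had miR-99a-3p at 9.38 miRNA RPM, against 0 to 1.34 in the other libraries of its group, and this rests on 9 reads. PANDORA-seq DCHP 1 had a ratio of 17 for miR-125b-5p per miR-125a-5p, against 1 to 3.2 in the others, and this rests on 1 read of miR-125a-5p.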

How the results depend on the processing

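Depth limits the PANDORA-seq values, with 1 to 113 reads of each 5p species in a library, and scaling moves them. The alternatives without Mir122, those for correlations, and the wider window, exact matches and left-out libraries for read length were chosen after seeing the data. The cause of the changes was not tested.

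For exposure in PANDORA-seq, DESeq2 called 1 arm and no filter 2, and in traditional libraries no filter called 13. For method in controls, the called arms were 275 with all reads as library size, 277 with hairpin reads of any length, 112 with TMM, 154 with DESeq2, 319 with no filter, 170 on whole hairpins and 54 on arms of mature-length hairpins only. In DCHP libraries they were 300, 307, 109, 135, 286, 151 and 27. For the 5p share by method in controls, the called hairpins were 19 with exact matches, 55 with reads of 18 to 26 nt, 11 with at least 50 reads and 0 to 41 with a library left out. In DCHP libraries they were 67 with 18 to 26 nt and 13 with at least 50 reads.

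Equal replicate numbers were not taken as pairing, because the labels do not say whether they mark the same RNA. The correlation of deviations was over 0.1 in 1 of 4 and 0 of 5 pairs between exposures and in 3 of 4 and 4 of 5 pairs between methods. The library with the same number was the best match in 1 of 4, 0 of 5, 2 of 4 and 3 of 5. Likeness by number was thus more frequent between methods, where the main tests took the libraries as independent. With the replicate block, 108 and 73 arms were called between methods and 0 between exposures. It called 0 hairpins in the 5p share, and nothing is read from that 0. With 4 pairs the exact test cannot reach an adjusted p below 0.1, and with 5 pairs only if most hairpins reached its smallest p. Under the block, miR-125b-5p by method in controls was 1.31 (adjusted p = 0.0118, edgeR). miR-125a-5p was 1.09 and passed (adjusted p = 0.0873, edgeR), and miR-99b-5p by exposure in traditional libraries was 0.0047.

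Signs turned for these log2 differences. By exposure in traditional libraries, miR-99a-5p was −0.16 with all reads, −0.27 with TMM, −0.092 without Mir122 and −0.28 with DESeq2, miR-100-5p −0.24 with TMM and −0.23 with DESeq2, and miR-125b-5p −0.027 and −0.030. With 1 library left out, miR-100-5p by exposure ran from −0.16 to 0.39 in PANDORA-seq and from −0.010 to 0.25 in traditional libraries, and miR-99b-5p from −0.16 to 0.10 in the latter. By method in DCHP libraries the ranges were −0.043 to 0.40 (miR-99a-5p), −0.26 to 0.13 (miR-99b-5p) and −0.092 to 0.60 (miR-125a-5p). By method in controls, with all reads, hairpin reads of any length, TMM and DESeq2, miR-99a-5p was −6.92, −4.01, −0.47 and −0.85, and miR-125a-5p −6.46, −3.76, −0.19 and −0.49. miR-125b-5p was −6.11, −3.35 and, with DESeq2, −0.24. In DCHP libraries they were −7.01, −4.35, −0.71 and −1.07 (miR-99a-5p), −6.73, −4.07, −0.61 and −0.90 (miR-125a-5p), and −6.76, −4.13, −0.45 and −0.84 (miR-125b-5p).

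In library RPM, correlations over traditional libraries became positive: 0.73 (miR-99a-5p with miR-99b-5p), 0.63 (miR-99a-5p with miR-100-5p), 0.63 (miR-99b-5p with miR-125a-5p, 0.050 without Mir122), 0.79 (miR-99b-5p with miR-125b-5p), 0.34 (miR-100-5p with miR-125a-5p) and 0.64 (miR-100-5p with miR-125b-5p). The mean length of miR-100-5p minus miR-99b-5p was 0.029 nt with reads of 18 to 26 nt.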
